A study of Homo sapiens with 10 samples.

Results

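The genes described here are 10 genes of pulmonary surfactant and the distal lung, SFTPB, SFTPC, SFTPD, SFTPA1, SFTPA2, SFTA3, NAPSA, ABCA3, LAMP3 and SCGB3A2, taken by symbol from the 28265 genes counted in thyroid organoids. SFTPB was chosen by its measured time course in these same libraries, so its values are given as a description and were not tested. The other 9 are known lung genes, set beside SFTPB to ask whether lung genes that depend on NKX2-1 follow it. They were picked with earlier results of these libraries known. Of these 9, all but SFTPC had enough counts to be tested.

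The libraries come from NKX2-1/GFP+ cells, isolated by sorting from ESIBIe003-A-6 organoids. This is a human embryonic stem cell line in which GFP replaces exon 2 of 1 NKX2-1 allele and doxycycline induces a lentiviral transgene of NKX2-1 and PAX8, in clones picked by drug selection. All 10 libraries carry both modifications, all cells passed the doxycycline step that starts thyroid differentiation, and each library was made from 10000 sorted cells with wells pooled. There were 2 libraries, biological replicates by the study's methods, at each of days 16, 23, 31, 38 and 45. Day 16 cells were in basal medium by the study's methods, although their label names c-AMP. Day 23 and day 31 cells had received the cAMP analogue 8-br-cAMP (label c-AMP), and by the study's schedule the medium was changed just before day 31. Day 38 cells had hrTSH and the glucocorticoid dexamethasone (label TSH DEX). Day 45 cells in addition had SB431542, which blocks TGFβ receptor kinases (label TSH SB, which leaves out dexamethasone). Each day is therefore another age and, in part, another medium, and the effects of age and medium cannot be told apart here. Cells kept on cAMP were not analysed here. Total counts ran from 7247268 to 10333933 per library, at which 3 counts, the floor used here, equal 0.307 to 0.436 CPM, the unit of level used here (counts scaled to a common library size). This floor covers counting error only, whereas the SD and SE values given below also hold differences between libraries.

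NKX2-1 is a transcription factor needed by the thyroid, the lung and part of the forebrain, and in the lung it acts on the genes of surfactant together with FOXA and other factors. Surfactant is the film of lipid and protein that alveolar type 2 cells store in lamellar bodies and secrete onto the alveolar surface. SFTPB and SFTPC encode its small hydrophobic proteins, whereas SFTPA1, SFTPA2 and SFTPD encode collectins, which bind microbes.

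SFTPB lies on chromosome 2 (GRCh38 chr2:85657314-85668741, minus strand) and ABCA3, whose product pumps lipid into lamellar bodies, on chromosome 16 (GRCh38 chr16:2275881-2340746, minus strand). The 250 bases before a RefSeq start site of each (GRCh38.p14; SFTPB chr2:85668200-85668449, ABCA3 chr16:2340729-2340978) are printed because these genes had different time courses. Capitals mark TCAAG, the core letters that NKX2-1 binds, and TGTTTG or TGTTTA, core letters for FOXA factors, read on both strands.
SFTPB: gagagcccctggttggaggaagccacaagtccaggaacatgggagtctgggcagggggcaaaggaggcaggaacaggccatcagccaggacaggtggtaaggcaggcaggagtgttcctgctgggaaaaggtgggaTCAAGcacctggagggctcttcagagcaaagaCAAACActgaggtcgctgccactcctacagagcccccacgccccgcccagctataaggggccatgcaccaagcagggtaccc
ABCA3: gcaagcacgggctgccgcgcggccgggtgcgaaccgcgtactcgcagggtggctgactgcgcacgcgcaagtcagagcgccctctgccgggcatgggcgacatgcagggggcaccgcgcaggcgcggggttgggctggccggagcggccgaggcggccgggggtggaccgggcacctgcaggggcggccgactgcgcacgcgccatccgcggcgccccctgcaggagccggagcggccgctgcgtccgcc
In the SFTPB sequence TCAAG began at position -114 from the start site, and TGTTTG, read on the other strand (CAAACA as printed), at position -82. None of the 3 motifs was in the ABCA3 sequence. SFTPB has another RefSeq start site, whose window held none of them either. Over all 34943 promoter windows (250 bases before to 50 after a start) TCAAG was found in 33.7%, TGTTTG in 14.9% and TGTTTA in 12.3%, so that these letters are common. A window was used for 8 of the 10 genes (12 windows in all), and TCAAG was in at least 1 window of SFTPB, SCGB3A2, SFTPA1, SFTPA2, SFTPD, SFTA3 and NAPSA. SFTPB, SFTPA2, SFTA3 and NAPSA had more than 1 window, whereas the 33.7% is per window, so these are not directly comparable. The FOXA letters were not particular to SFTPB, with TGTTTG also in the SCGB3A2 window and TGTTTA in windows of SFTPA1, SFTPA2 and SFTA3. Letters for the agents of the media were also searched, namely TGACG, part of the cAMP response element (24.5% of all windows), and TGTTCT, part of the glucocorticoid receptor element (14.8%). TGACG occurred only in 1 NAPSA window, and TGTTCT only in the windows of SFTPA2 and 1 window of SFTPD. A match is a run of letters and not a measured binding site.

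SFTPB was low at day 16, high at days 23 and 31, low again at day 38 and intermediate at day 45. Its level was 3.55 and 1.48 CPM (day 16), 165 and 149 CPM (day 23), 499 and 502 CPM (day 31), 6.59 and 8.62 CPM (day 38), and 46.2 and 50.2 CPM (day 45). No library of a day overlapped with those of another day. The day 31 mean was 500.5 ± 1.81 CPM (SD, n = 2), which is 199 times the day 16 mean of 2.51 ± 1.47 CPM, 65.8 times the day 38 mean of 7.60 ± 1.43 CPM and 10.4 times the day 45 mean of 48.2 ± 2.88 CPM. The fitted log2 difference of day 38 from day 31 was -6.04 (SE 0.21), and that of day 45 from day 38 was 2.67 (SE 0.20). The day 23 difference from day 16 was 5.96 (SE 0.23), and it was 6.73 without replicate 1 of day 16. SFTPB alone held 54.4 to 55.1% of the summed CPM of the 10 genes at day 31, and 1.39 to 1.93% at day 38. The libraries are of sorted bulk cells, in which fewer cells that express a gene and less RNA in each such cell cannot be told apart.

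**Figure D1:**
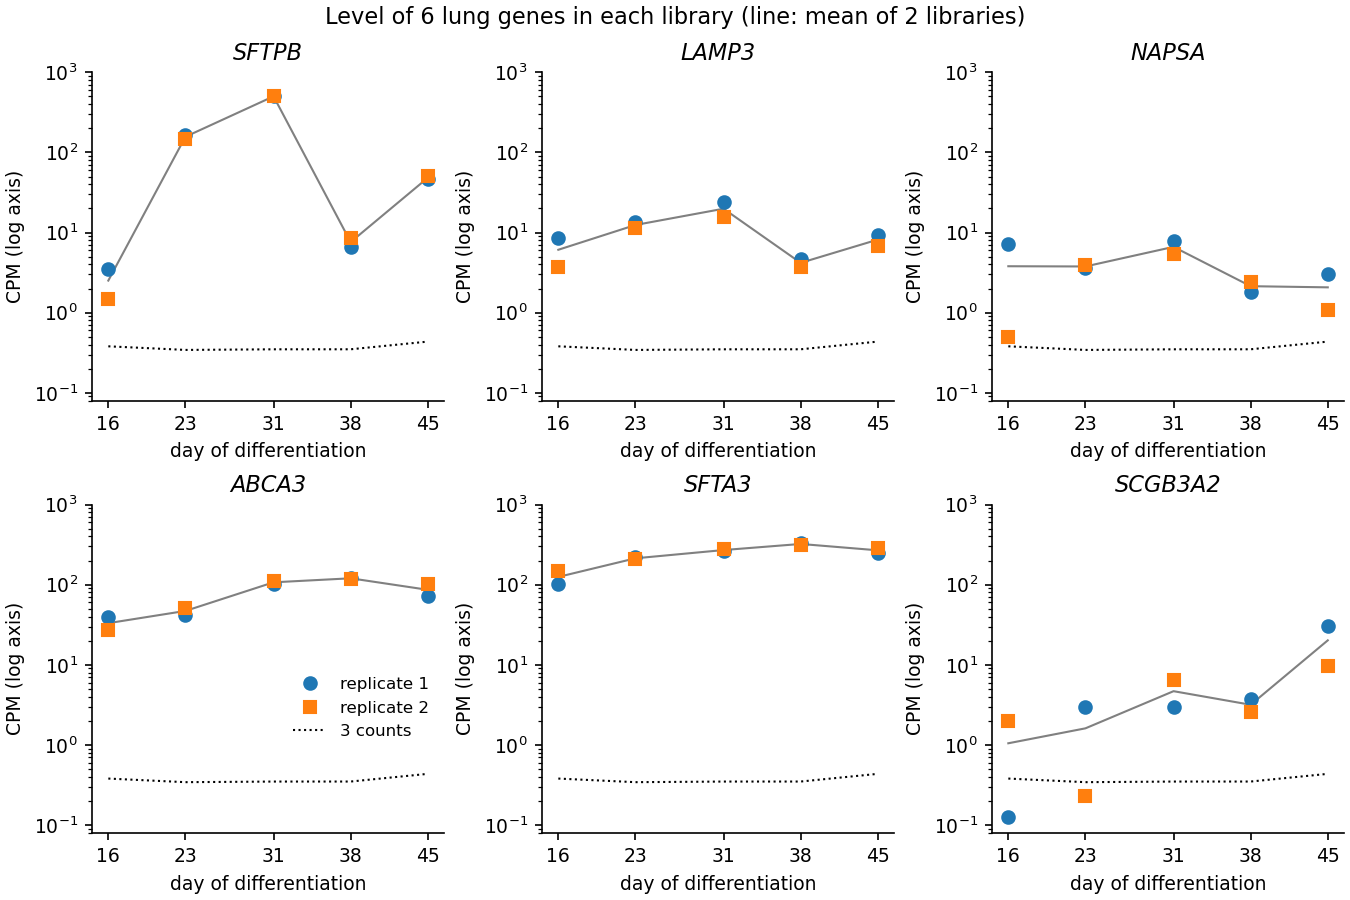
CPM on a log axis (vertical) by day of differentiation (horizontal) for SFTPB, LAMP3, NAPSA, ABCA3, SFTA3 and SCGB3A2, with circles for replicate 1, squares for replicate 2, a line through the means of 2 libraries and a dotted line at 3 counts in the shallower library of the day. SFTPB reaches 499 and 502 CPM at day 31 and 6.59 and 8.62 CPM at day 38, whereas ABCA3 and SFTA3 stay near their day 31 levels at day 38.

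Of the 8 other genes tested, 4 differed between days (LAMP3, ABCA3, SFTA3 and SCGB3A2), against 36.3% of all 21014 genes tested, by the quasi-likelihood test of edgeR, adjusted over all genes after Benjamini and Hochberg. Without replicate 1 of day 45 it was 3 of 8, SCGB3A2 no longer passing. Between neighbouring days each of the 4 passed in a different comparison, and LAMP3 was the gene of the set that fell at day 38, when SFTPB was low. LAMP3 encodes a glycoprotein of the lamellar body membrane (GRCh38 chr3:183122215-183163839, minus strand). Its level was 8.496 and 3.69 CPM (day 16), 13.4 and 11.4 CPM (day 23), 24.1 and 15.6 CPM (day 31), 4.64 and 3.73 CPM (day 38), and 9.44 and 6.88 CPM (day 45). LAMP3 was therefore highest at day 31, and every day 38 library was below every library of days 23, 31 and 45. From day 31 to day 38 LAMP3 fell by 2.24 on the log2 scale (SE 0.48, 4.72-fold lower, adjusted p = 0.000845). Under 11 other settings this difference ran from -2.53 to -1.89, with adjusted p from 8.53e-05 to 0.0345. The rises before and after it did not pass the test, with log2 differences of 1.03 (SE 0.47, adjusted p = 0.172) for day 23 against 16, 0.67 (SE 0.45, adjusted p = 0.605) for day 31 against 23 and 0.95 (SE 0.48, adjusted p = 0.234) for day 45 against 38. The first of these did pass without replicate 1 of day 16 (log2 difference 1.76, adjusted p = 0.0483). By daily mean, LAMP3 thus had its highest and lowest days where SFTPB had its peak and its dip, over a smaller range. Its day 31 mean of 19.8 ± 5.98 CPM stood beside 4.19 ± 0.649 CPM at day 38 (SD, n = 2). Day 16 overlapped with day 38, its replicate 2 (3.69 CPM) lying below both day 38 libraries.

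NAPSA encodes napsin A, a protease that processes the SFTPB precursor (GRCh38 chr19:50358472-50365830, minus strand). Its level was 7.10 and 0.493 CPM (day 16), 3.66 and 3.89 CPM (day 23), 7.78 and 5.47 CPM (day 31), 1.84 and 2.45 CPM (day 38), and 3.05 and 1.09 CPM (day 45). The day 31 mean was the highest, and the day 31 libraries did not overlap with those of day 38, but the 2 day 16 libraries stood far apart, one of them the lowest of all 10. NAPSA passed no test (any day, adjusted p = 0.406), and its log2 difference of day 38 from day 31 was -1.63 (SE 0.88, adjusted p = 0.250). Moreover, 33.0% of its exon bases lie over exons of NR1H2 on the opposite strand, and the strand setting of the counting is not given in the sources used here. NR1H2, a nuclear receptor gene, had daily means from 18.0 to 21.3 CPM, above NAPSA on every day, so that the NAPSA values are uncertain.

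ABCA3 and SFTA3 were expressed on every day and did not share the dip of SFTPB at day 38. ABCA3 stood at 39.3 and 26.8 CPM (day 16), 42.2 and 51.8 CPM (day 23), 101 and 112 CPM (day 31), 122 and 118 CPM (day 38), and 71.3 and 101 CPM (day 45). The step was between days 23 and 31, where ABCA3 rose by 1.19 on the log2 scale (SE 0.19, 2.27-fold, adjusted p = 0.000179). Its day 38 mean of 120 ± 2.74 CPM was the highest and lay beside 107 ± 7.76 CPM at day 31 (SD, n = 2). That difference was 0.17 on the log2 scale (SE 0.19, adjusted p = 0.642), and -0.051 without TMM scaling. Between days 38 and 45 the log2 difference was -0.47 (SE 0.19, adjusted p = 0.111), which passed when replicate 2 of day 45 was left out (-0.75, adjusted p = 0.0419) and when replicate 1 of day 16 was left out.

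SFTA3 is a lung-enriched gene next to NKX2-1, and its symbol covers a protein-coding and a lncRNA gene in the annotation (GRCh38 chr14:36473207-36521149 and chr14:36473288-36513829, minus strand). Its level was 101 and 149 CPM (day 16), 218 and 208 CPM (day 23), 265 and 275 CPM (day 31), 335 and 309 CPM (day 38), and 250 and 286 CPM (day 45). Day 16 was the lowest and day 38 the highest, with no overlap between these days. SFTA3 rose from day 16 to day 23 by 0.77 on the log2 scale (SE 0.15, 1.71-fold, adjusted p = 0.000322). Its difference of day 38 from day 31 was 0.25 (SE 0.14, adjusted p = 0.281) and did not pass. The protein-coding SFTA3 gene shares 49.3% of its exon bases with NKX2-1 on the same strand, so the SFTA3 counts are uncertain. In turn, 32.6% of the NKX2-1 exon bases lie over SFTA3, and 12.7% over a gene on the opposite strand. The NKX2-1 counts are therefore uncertain as well. NKX2-1 itself rose at day 23 (log2 difference 0.64, SE 0.15, adjusted p = 0.00358) and had means of 154 ± 3.70 CPM at day 31 and 143 ± 15.0 CPM at day 38 (SD, n = 2), a log2 difference of -0.10 (SE 0.15, adjusted p = 0.735). At day 45 NKX2-1 fell by 1.199 (SE 0.15, adjusted p = 6.30e-07), beside a log2 difference of -0.26 (SE 0.14, adjusted p = 0.290) in SFTA3. NKX2-1 counts may hold transcripts of the transgene as well as of the cells' own alleles, which was not tested.

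SCGB3A2, a secretoglobin of the airways (GRCh38 chr5:147870682-147882191, plus strand), was low until day 38 and highest at day 45. Its raw counts were 1 and 16 (day 16), 27 and 2 (day 23), 29 and 55 (day 31), 35 and 22 (day 38), and 211 and 89 (day 45). Both day 45 libraries, at 30.6 and 9.72 CPM, were above all others, the highest of which had 6.40 CPM. SCGB3A2 rose from day 38 to day 45 by 2.66 on the log2 scale (SE 0.78, 6.31-fold, adjusted p = 0.0215). This call was lost without replicate 1 of day 38 (log2 difference 2.97, adjusted p = 0.0901), replicate 2 of day 38 (2.41, adjusted p = 0.200) or replicate 1 of day 45 (1.61, adjusted p = 0.464). At day 38 its mean was 3.17 CPM, beside 4.68 CPM at day 31 and 20.2 CPM at day 45. The log2 difference of day 38 from day 31 was -0.55 (SE 0.77, adjusted p = 0.720), far smaller than that of SFTPB (-6.04). With counts this low, a small dip can be neither shown nor excluded. Between days 16 and 45 the log2 difference was 4.24 (SE 0.87, adjusted p = 0.000292), and it ran from 3.19 without replicate 1 of day 45 to 7.15 without replicate 2 of day 16, where the remaining library had 1 count.

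The other surfactant protein genes were low. SFTPC, SFTPA1 and SFTPA2 were at or under the floor of 3 counts in 10, 8 and 5 of the 10 libraries, and SFTPD was above it in all. SFTPC, the defining gene of alveolar type 2 cells (on chromosome 8), had 0 counts in 9 of the 10 libraries and 1 count in the remaining library, at day 38. At this depth SFTPC was not detectable on the days when SFTPB was highest. SFTPD (GRCh38 chr10:79937467-79982614, minus strand) had 25 and 23 counts (day 16), 10 and 23 (day 23), 33 and 8 (day 31), 7 and 15 (day 38), and 8 and 9 (day 45). It was detected in every library at 0.756 to 3.38 CPM, highest on average at day 16, and passed no test (any day, adjusted p = 0.797). The neighbouring SFTPA1 (GRCh38 chr10:79610939-79615455, plus strand) and SFTPA2 (GRCh38 chr10:79555852-79560407, minus strand) were at 0 in 6 and 5 libraries. SFTPA1 reached 37 counts in replicate 2 of day 31 and 11 in replicate 2 of day 45, with 0 in replicate 1 of both days. SFTPA2 had 15 and 5 counts (day 31), 6 and 8 (day 38), 0 and 7 (day 45), and 0 in all 4 libraries of days 16 and 23. The pair share 583 stretches of 50 bases, 22.9% of those of SFTPA1 and 21.0% of those of SFTPA2, so reads could be split between them and their values are uncertain. Neither passed a test (any day, adjusted p = 0.232 for SFTPA1 and 0.241 for SFTPA2), and no fold is given for genes this low.

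**Figure D2:**
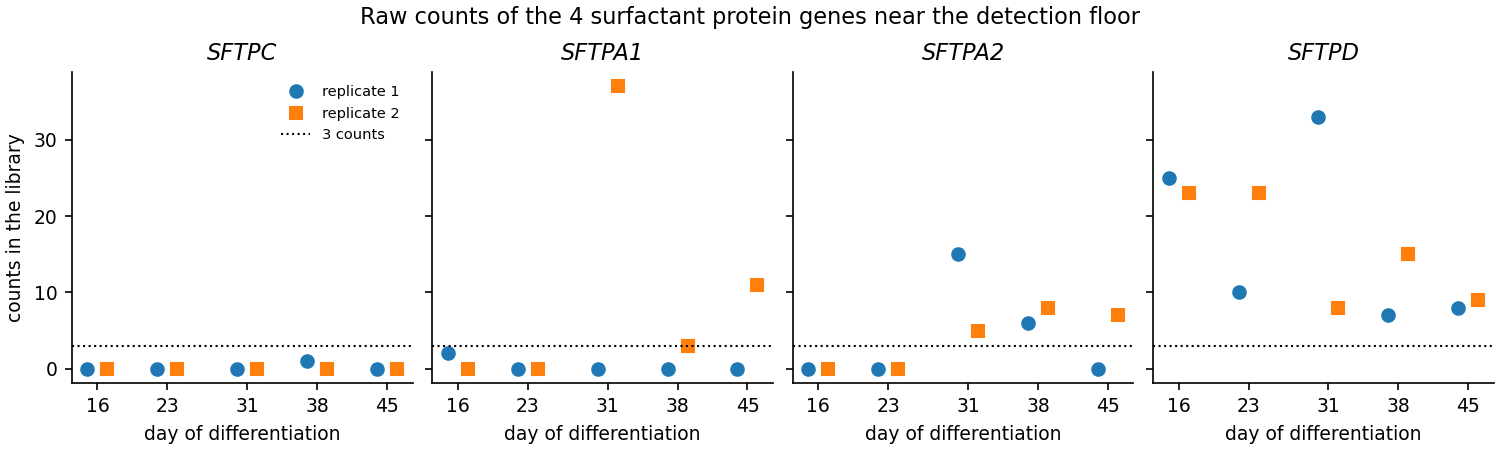
Raw counts per library (vertical) by day (horizontal) for SFTPC, SFTPA1, SFTPA2 and SFTPD, with circles for replicate 1, squares for replicate 2 and a dotted line at 3 counts. SFTPC has a total of 1 count over 10 libraries, and the highest values of the others are 37, 15 and 33 counts.

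Set by comparison, SFTA3 was the 1 gene of the 8 that was higher at day 23 than at day 16, where 5.60% of all genes tested were higher and 5.33% lower. ABCA3 was the 1 gene higher at day 31 than at day 23, beside 1.58% of all genes higher and 0.666% lower. LAMP3 was the 1 gene lower at day 38 than at day 31, beside 6.23% of all genes lower and 8.80% higher. SCGB3A2 was the 1 gene higher at day 45 than at day 38, beside 4.85% higher and 6.35% lower over all genes. From the first day to the last SFTA3 (log2 difference 1.10, SE 0.15, adjusted p = 3.16e-07), ABCA3 (1.39, SE 0.20, adjusted p = 1.17e-06) and SCGB3A2 rose, 3 of 8, and none fell, with 12.9% of all genes higher and 11.7% lower. The median log2 difference of the 8 genes was 0.25 for day 23 against 16, 1.00 for day 31 against 23, -0.67 for day 38 against 31 and -0.14 for day 45 against 38. Over the 6 genes without SFTPA1 and SFTPA2, whose fitted values depend on the prior count because they are at 0 on some days, it was 0.56, 0.74, -0.67 and -0.14. The median over all genes tested was -0.023, 0.00052, 0 and -0.019 in the same order. For day 23 against day 16 the count depended on 1 library, since 3 genes (ABCA3, LAMP3 and SFTA3) passed without replicate 1 of day 16, ABCA3 with a log2 difference of 0.82 (adjusted p = 0.0137) in place of 0.51 (adjusted p = 0.103). Comparisons of neighbouring days share a day and are therefore not independent of each other.

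To compare levels between genes, CPM was divided by the exon length in kb, leaving out SFTA3 because its symbol covers 2 annotated genes. At day 16 ABCA3 was first at 4.24 ± 1.13 CPM per kb and SFTPB stood sixth at 0.612 ± 0.357 (SD, n = 2), with the ranges of the genes from LAMP3 to SFTPB overlapping from each to the next. At day 23 the order was SFTPB at 38.1, ABCA3 at 6.02 and LAMP3 at 3.28 CPM per kb, without overlap. At day 31 the order was the same, with SFTPB at 122, ABCA3 at 13.7 and LAMP3 at 5.24 CPM per kb, and LAMP3 overlapped with SCGB3A2 at 4.36. SFTPB thus held the first place per length, without overlap, on the cAMP days only. At day 38 ABCA3 was first at 15.4 CPM per kb, followed by SCGB3A2 at 2.95 and SFTPB at 1.85. At day 45 SCGB3A2 at 18.8, SFTPB at 11.7 and ABCA3 at 11.0 CPM per kb overlapped and cannot be ordered.

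Other genes of surfactant handling moved in both directions at day 38. Of 15 genes of surfactant processing and the lamellar body, 13 were tested (CSF2RA and CSF2RB were not), and ADGRF5, CTSH and SLC34A2 fell between days 31 and 38, whereas ATP8A1, DMBT1 and NPC2 rose. These are 3 lower and 3 higher of 13, beside 6.23% lower and 8.80% higher over all genes. ADGRF5 encodes a receptor that limits the surfactant pool. It had 0 counts in both day 16 libraries, 7.20 and 14.6 CPM (day 23), 56.9 and 38.5 CPM (day 31), 8.53 and 11.3 CPM (day 38), and 20.5 and 17.3 CPM (day 45). Like SFTPB, it was highest at day 31, and its libraries of days 31 and 38 did not overlap. ADGRF5 rose at day 23 (adjusted p = 3.06e-09) and at day 31 (log2 difference 2.13, SE 0.37, adjusted p = 0.000423) and fell at day 38 (-2.27, SE 0.37, adjusted p = 2.37e-05).

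CTSH, a protease that trims the SFTPB and SFTPC precursors, fell at day 38 by 0.82 on the log2 scale (SE 0.27, adjusted p = 0.0345), from 43.0 ± 2.89 to 24.4 ± 0.764 CPM (SD, n = 2). SLC34A2, the phosphate transporter of alveolar type 2 cells, fell by 1.92 (SE 0.63, adjusted p = 0.0335) and rose by 2.87 at day 45 (SE 0.64, adjusted p = 0.00190), where its libraries stood far apart at 27.3 and 6.33 CPM. In the opposite direction, the lipid flippase gene ATP8A1 rose at day 38 by 1.23 (SE 0.17, adjusted p = 1.03e-06), and NPC2, which binds cholesterol, by 0.77 (SE 0.19, adjusted p = 0.00459). DMBT1, a scavenger receptor that binds SFTPD, had 10.0 and 3.14 CPM (day 31), 50.3 and 5.94 CPM (day 38) and 134 and 345 CPM (day 45), and its rise at day 38 (adjusted p = 0.00351) rests on libraries that overlap. LPCAT1, which makes the main surfactant lipid, had a log2 difference of -0.19 at day 38 (SE 0.19, adjusted p = 0.582), and PGC, a protease of SFTPB processing, stayed below 3 CPM on average on every day. No gene of this list fell in the other comparisons. There rose 2 at day 23 (ADGRF5 and LAMP1), 1 at day 31 (ADGRF5), 2 at day 45 against 38 (DMBT1 and SLC34A2) and 7 at day 45 against day 16. Over all genes 5.60%, 1.58%, 4.85% and 12.9% were higher in the same order. The median log2 difference of the 13 genes was 0.069 at day 38 against 31, when the lung genes' median was -0.67. That lung median lies between the sparse genes SFTPD (-0.78, SE 1.18) and SCGB3A2 (-0.55, SE 0.77), neither of them called. Among the lung genes only LAMP3 (-2.24) was called there. NAPSA stood at -1.63, and ABCA3 and SFTA3 at 0.17 and 0.25. The lung median therefore does not show a fall of the set as a whole.

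**Figure D3:**
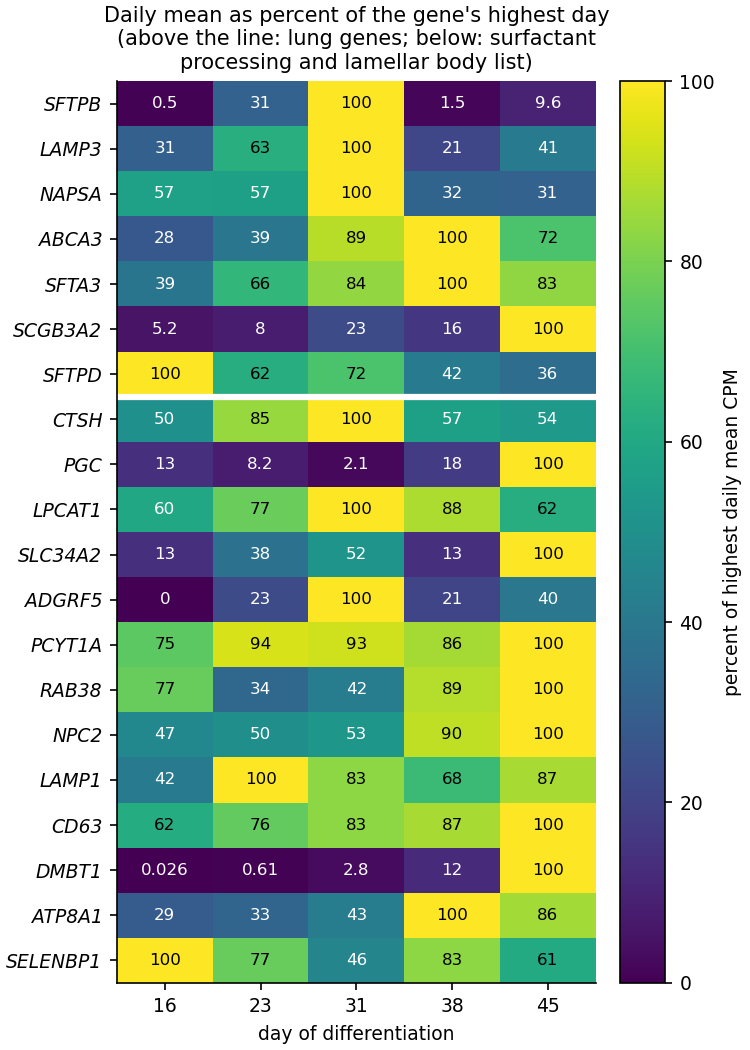
Daily mean CPM as a percent of each gene's highest day (colour and printed number), with days in columns and genes in rows, 7 of the lung genes above the white line and the 13 tested genes of surfactant processing and the lamellar body below it. SFTPB, LAMP3, NAPSA, CTSH, LPCAT1 and ADGRF5 are highest at day 31, and at day 38 SFTPB is at 1.5% of that level, LAMP3 and ADGRF5 at 21%, and NAPSA at 32%.

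Of 28 genes of a list of lung endoderm transcription factors and distal tip genes, which also holds the proximal airway factor SOX2 and general epithelial factors such as GRHL2 and ELF3, all were tested, and 8 fell between days 31 and 38 (BMP4, ETV4, ETV5, FOXP1, FOXP4, GATA6, ID2 and KLF5), 2 rose (FOXP2 and IRX1) and 18 were not called, beside 6.23% of all genes lower and 8.80% higher. ETV5, a factor of FGF signalling at the lung tip, had means of 7.78 ± 2.58 CPM (day 16), 39.3 ± 2.24 (day 23), 101 ± 7.34 (day 31), 14.8 ± 1.66 (day 38) and 23.3 ± 3.44 (day 45), all with SD over n = 2. It rose at day 23 (log2 difference 2.33, SE 0.27, adjusted p = 7.66e-08) and at day 31 (1.35, SE 0.24, adjusted p = 0.000567) and fell at day 38 (-2.77, SE 0.26, adjusted p = 3.07e-10). BMP4, a signal of the tip, fell at day 38 by 2.61 (SE 0.19, adjusted p = 7.73e-13) and again at day 45 by 1.55 (SE 0.20, adjusted p = 9.52e-07). FOXA1 and FOXA2, partners of NKX2-1 at lung genes, had log2 differences of 0.10 (SE 0.42, adjusted p = 0.927) and -0.52 (SE 0.49, adjusted p = 0.563) at day 38 and were not called. FOXA1 had risen at day 23 (4.66, SE 0.66, adjusted p = 4.00e-06), from 0 and 5 counts at day 16, so the size of this rise is uncertain. FOXA2 had risen at day 31 (2.52, SE 0.53, adjusted p = 0.00431). CEBPD, which responds to cAMP and glucocorticoid in lung cells, rose at days 23 and 31 and, unlike SFTPB, had a log2 difference of only -0.32 at day 38 (SE 0.20, adjusted p = 0.342). Over the list 10 genes rose and 1 fell at day 23, 9 rose and 1 fell at day 31, 4 rose and 10 fell at day 45 against 38, and 7 rose and 8 fell at day 45 against day 16. The shares over all genes were 5.60% higher and 5.33% lower, 1.58% and 0.666%, 4.85% and 6.35%, and 12.9% and 11.7% in the same order.

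The genes with a time course most like that of SFTPB were ranked by the root mean square (RMS) difference in centred log2 CPM over the 10 libraries, among 13114 tested genes with a mean of at least 5 CPM. The first 10 were G0S2 (RMS difference 1.08), ADGRF1 (1.27), PCSK2 (1.32), FGG (1.32), HRH2 (1.36), NOX5 (1.37), CAVIN2 (1.40), AKR1C2 (1.43), ARHGAP15 (1.47) and BRSK2 (1.49), none of which is in the lists used here. G0S2, an inhibitor of fat breakdown, had 2 and 7 counts (day 16), 189 and 174 (day 23), 177 and 229 (day 31), 15 and 13 (day 38) and 56 and 69 (day 45). PCSK2, a protease that processes prohormones, had 0 counts in both day 16 libraries, 501 and 321 (day 31), 42 and 47 (day 38), and 12 and 31 (day 45). FGG, a fibrinogen chain, had 323 and 282 counts (day 31), 35 and 5 (day 38), and 195 and 223 (day 45). All 10 were highest at day 31 in mean CPM and lower at day 38, a course for which they were picked, and the day 31 mean was 5.24 (BRSK2) to 37.6 (ARHGAP15) times the day 38 mean, compared with 65.8 times for SFTPB. They differed at day 45, where the ratio to day 38 ran from 0.512 in PCSK2 to 12.1 in FGG and was 6.34 in SFTPB. The day 38 counts behind the highest ratios were 1 and 14 in ARHGAP15 and 35 and 5 in FGG, so both ratios are uncertain. PCSK2, ARHGAP15 and BRSK2 had lower means at day 45 than at day 38.

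**Figure D4:**
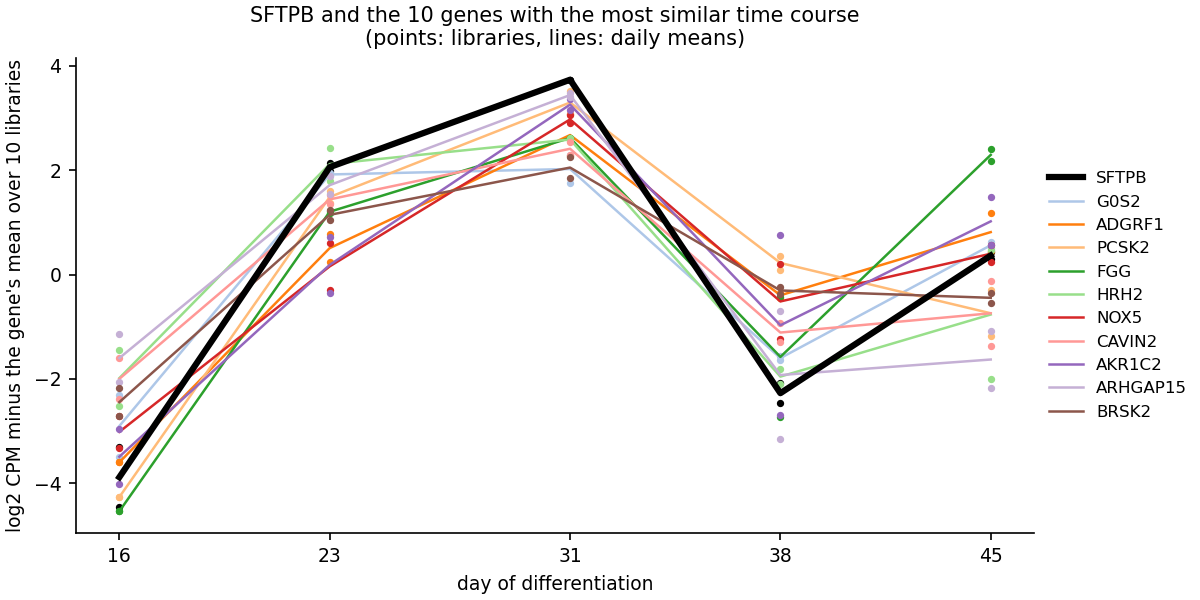
Log2 CPM minus each gene's mean over 10 libraries (vertical) by day (horizontal), for SFTPB (thick black line) and the 10 genes nearest to it by RMS difference, with points for libraries and lines for daily means. All 11 lines are highest at day 31 and lower at day 38, and the genes spread apart at day 45.

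Among the listed genes ETV5 (rank 15, RMS difference 1.62) and ADGRF5 (rank 18, 1.67) came nearest to SFTPB. LAMP3 was at rank 64 (2.10), SLC34A2 at 116, the goblet gene AGR2 at 125 and CEBPD at 154. ABCA3 stood at rank 1539, SFTA3 at 1676, NKX2-1 at 2081 and SCGB3A2 at 9030 of 13114. NAPSA and the other surfactant protein genes were below the level needed for ranking. The ranks describe these 10 libraries, in which the 2 of a day share their age and medium, and carry no p-value.

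Markers of other cell types were summed per library beside these differences. Their counts of called genes stand beside shares over all genes of 5.60% higher and 5.33% lower (day 23), 1.58% and 0.666% (day 31), 8.80% and 6.23% (day 38), and 4.85% and 6.35% (day 45), each against the sampled day before. Of the alveolar type 2 genes, SFTPC was at 0 in 9 libraries. At day 31 SFTPB, ABCA3, LPCAT1 and LAMP3 had means of 500, 107, 82.4 and 19.8 CPM. SLC34A2 and NAPSA had 8.68 and 6.62 CPM, and SFTPD, SFTPA1, SFTPA2 and PGC had 2.15, 2.15, 1.06 and 0.058 CPM. Whether alveolar type 2 cells were present cannot be told from these bulk libraries. Of 11 alveolar type 1 genes, 0 rose and 3 fell at day 23 (CAV2, CLIC5 and RTKN2), 2 rose and 0 fell at day 31, 2 rose (CAV1 and CAV2) and 1 fell (EMP2) at day 38, and 2 rose and 0 fell at day 45, with GPRC5A the most abundant in every library. AGER, the defining gene of that type, was at or below 1.69 CPM on average on every day. Of 10 club and secretory airway genes 8 were tested, and SLPI rose at day 31, MUC5B and WFDC2 at day 38, and MUC5B and SLPI at day 45, when SCGB3A2 also rose. SLPI, a protease inhibitor, had means of 0.063 CPM (day 16), 0 (day 23), 2.70 (day 31), 0.881 (day 38) and 9.28 (day 45). Its mean was thus lower at day 38 than at days 31 and 45, but the fall from day 31 to day 38 was not called. SCGB1A1, the defining club cell gene, was at 0.698 CPM or less on average on each day. The summed level of the club list was 13.5 to 40.1 CPM through day 31, 126.8 and 95.8 CPM at day 38, and 193.8 and 134.2 CPM at day 45. Among 5 airway basal genes TP63, a defining factor of basal cells, fell at day 23 from 12.9 to 3.11 CPM on average (adjusted p = 0.0104), and KRT5 rose at days 31 and 45. Of 6 goblet genes, AGR2 rose at day 31 (log2 difference 3.84, SE 0.28, adjusted p = 3.78e-11), fell at day 38 (-2.17, SE 0.25, adjusted p = 3.92e-08) and rose at day 45 (0.98, SE 0.25, adjusted p = 0.00633). The mucin gene MUC5AC of the same list rose at day 23 (adjusted p = 0.0405), from 0 counts in both day 16 libraries to 0.566 CPM on average, and differed from AGR2 at the last days, rising at day 38 (4.43, SE 0.73, adjusted p = 2.80e-05) and falling at day 45 (-4.30, SE 0.73, adjusted p = 6.24e-05), with means of 1.17, 25.8 and 1.26 CPM at days 31, 38 and 45. MUC5B, which is in this list too, rose at both days. FOXJ1 and TPPP3 of 6 ciliated genes fell at day 38, and DNAH5 rose. The part of these cell types in the levels of the lung genes was not tested.

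Some thyroid and mesodermal genes rose at day 38, when SFTPB was low. Counts of called genes in these lists and in those of the glucocorticoid response, forebrain and epithelium stand beside the shares over all genes. These shares were 5.60% higher and 5.33% lower (day 23), 1.58% and 0.666% (day 31), 8.80% and 6.23% (day 38), and 4.85% and 6.35% (day 45). Of 13 thyroid genes 6 rose and 0 fell between days 31 and 38, beside 8.80% of all genes higher, with TG, the thyroglobulin gene, up by 4.66 on the log2 scale (SE 0.12, adjusted p = 2.37e-25), and the summed level went from 2056 and 2043 CPM at day 31 to 8494 and 7676 CPM. TG had already risen by 4.10 at day 23 (SE 0.13, adjusted p = 2.71e-22), when SFTPB was also high. Of the same 13 thyroid genes 7 rose and 3 fell at day 23, and 2 rose and 4 fell at day 45 against 38. At day 31 against 23 none of them was called. Of 8 mesodermal genes 4 rose and 0 fell at day 38, with COL1A2 up by 2.67 (SE 0.14, adjusted p = 2.63e-16). Among these mesodermal genes 2 rose and 2 fell at day 23, 0 were called at day 31, and 1 rose and 0 fell at day 45. Their summed level was 561 to 656 CPM through day 31 and 1878 to 2486 CPM at days 38 and 45, with no gene at 0 in any library and COL1A1 or COL1A2 the most abundant. Of 8 genes of the glucocorticoid response 0 rose and 2 fell at day 23 (MT2A and ZBTB16), and 2 rose and 0 fell at day 31 (MT2A and SGK1), when SFTPB was at its highest. Of the same genes 5 rose and 0 fell at day 38 (FKBP5, MT2A, SGK1, TSC22D3 and ZBTB16), with log2 differences of 3.10 for MT2A (SE 0.61, adjusted p = 0.000286) and 2.02 for FKBP5 (SE 0.23, adjusted p = 3.98e-08). At day 45 against 38, when SFTPB was higher again, MT2A rose, DUSP1 fell and the other 6 were not called, FKBP5 among them (-0.24, SE 0.22, adjusted p = 0.581). Of 7 forebrain genes OTX2 rose at day 38 and fell at day 45, with a summed level of 7.21 to 31.3 CPM over all libraries. EPCAM and CDH1, general epithelial genes, were not called at day 38 (log2 differences 0.18, SE 0.14, adjusted p = 0.488, and 0.16, SE 0.12, adjusted p = 0.448), while KRT8 and KRT18 of the 5 epithelial genes fell. The part of cell makeup, thyroid maturation and medium in the SFTPB and LAMP3 differences was not tested.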

How the data were processed

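RNA-seq libraries were made from sorted NKX2-1/GFP+ cells with a low-input kit (NuGEN Ovation Solo). Per the labels and the study's methods, the authors trimmed reads with Trimmomatic, aligned them to GRCh38.p13 with HISAT2 and counted them per gene with HTSeq, and the deposited values are raw counts for 28265 symbols, with no normalization. Versions and strand setting are not given in the sources used here, and no molecular identifiers are named. The 21014 genes that reached 5 counts in 2 or more libraries entered edgeR 4.0.16 (TMM factors, glmQLFit and glmQLFTest, 1 mean per day over 10 libraries, 5 residual degrees of freedom) in R 4.3.3 with limma 3.58.1, adjusted by Benjamini-Hochberg over all genes, at a threshold of 0.05. CPM uses TMM-scaled library sizes, and SE is the log2 fold change over the root of F. Log2 CPM for the ranking used a prior count of 2. The procedure was also run on simulated counts in which genes were changed at 1 day only, unlike these data, and its outcome is not given here. DESeq2 1.42.0, other scaling, filters, a replicate block and leaving out each library were the alternatives. The genes named are the 10 lung genes, the 10 genes most like SFTPB and the members of 12 lists. NR1H2 is named in addition, for its overlap with NAPSA. Genes and lists were chosen with earlier results of these data known. Replicates of a day differed by more than sampling noise (chi-square per degree of freedom 8.38 to 13.7), and p-values measure the spread between these libraries. Positions and lengths are from GENCODE on GRCh38 (25755 symbols matched), and promoters from RefSeq (GRCh38.p14).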

Additional observations from a re-analysis of the deposited data

How the results depend on the processing

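With 2 libraries a day, the counts of lung genes called among the 8 tested stayed within 1.5 times of those given for each comparison under DESeq2, scaling by library size or by upper quartiles, dropping the low-count filter or using filterByExpr and the fit of the 4 libraries of the 2 days. Leaving out 1 library at a time gave 1 to 3 called genes for day 23 against 16 and 0 to 2 for day 45 against 38, where the 0 arose without either day 38 library or without replicate 1 of day 45, and the 2 (with ABCA3) without replicate 1 of day 16 or replicate 2 of day 45. A day left with 1 library is assumed to vary like the others. Replicate numbers did not pair the libraries (correlations of their deviations from -0.0766 to 0.0803), and with a replicate block the called lung genes remained SFTA3 for day 23 against 16, ABCA3 for day 31 against 23, LAMP3 for day 38 against 31 and SCGB3A2 for day 45 against 38 (1 each), 3 for day 45 against 16 and 4 over any day.

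Differences that turned sign were all small or from sparse genes, and none was called. NAPSA at day 23 against 16 was -0.0073, but 0.0082 without TMM factors, 0.0075 with no low-count filter and 0.38 with the replicate block. ABCA3 at day 38 against 31 turned to -0.051 without TMM factors, a setting that moves the median of all genes by -0.20. Leaving out 1 library gave ranges across 0 for NAPSA (-0.91 to 2.91 at day 23 against 16, -0.96 to 0.51 at day 45 against 38 and -1.79 to 2.01 at day 45 against 16), SFTPD (-0.99 to 0.95 at day 31 against 23, -1.497 to 0.42 at day 38 against 31 and -0.70 to 0.49 at day 45 against 38), LAMP3 at day 45 against 16 (-0.064 to 1.12) and SCGB3A2 (-2.14 to 3.53 at day 23 against 16 and -1.01 to 0.089 at day 38 against 31). The cause was not tested. LAMP3 and ABCA3 passed at day 23 against 16 without replicate 1 of day 16 (log2 differences 1.76 and 0.82, adjusted p = 0.0483 and 0.0137 by edgeR). SFTPB kept its direction in all 11 alternatives, with -6.26 to -5.86 at day 38 against 31. No log2 fold change is given for SFTPA1, SFTPA2 and SFTPC, which are at or near the floor, and those of SFTPA1 and SFTPA2 were not followed through the alternatives.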
